A study of Mus musculus with 6 samples.

Results

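The semaphorins, plexins and neuropilins were examined in differentiating mouse myoblasts that carried a normal or an expanded CUG repeat. The members were chosen by gene name alone, as every gene whose name begins with *Sema* and a digit or with *Plxna*, *Plxnb*, *Plxnc* or *Plxnd*, together with *Nrp1* and *Nrp2*. This gave 34 of the 55421 genes in the count table, of which 31 were protein-coding (20 semaphorins, 9 plexins and 2 neuropilins) and 3 were antisense transcripts of the *Plxna4* locus. The family was taken up with the fold changes of this same comparison already known, so its counts of changed genes are a description of these libraries and not independent evidence about the family.

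The cells were C2C12, an established mouse myoblast line that fuses into multinucleated myotubes when serum is lowered. The normal group was stably transfected with the GFP-CUG5 plasmid and the DM1 group with GFP-CUG200, a plasmid whose *GFP* transcript carries the long CUG repeat that models myotonic dystrophy type 1. Both groups went through G418 selection and were harvested on day 4 of differentiation in medium with 2% horse serum and insulin, and total RNA of 3 libraries per group was sequenced. The repeat sits in a transgene in a cell line and not at the *Dmpk* locus. The libraries of a group are described as biological replicates, but whether they came from separate transfections or cultures is not given in the sources used here, so the p-values measure the spread between these libraries.

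Semaphorins are secreted or membrane-bound guidance proteins, first known for steering growing axons. Their receptors are the plexins, whose intracellular part switches off small GTPases of the Ras and Rap families and thereby loosens adhesion and the actin cytoskeleton. Most secreted class 3 semaphorins cannot bind a plexin directly and use neuropilin 1 or neuropilin 2 as the ligand-binding subunit of a receptor complex with an A-type plexin. In muscle the family is known for roles in motor nerve patterning, in blood vessel growth and in myoblast differentiation.

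Promoter sequence is shown for the members that differed between the groups and whose RefSeq promoter window held at least 150 bases free of annotated exons. Each is the last such stretch before a RefSeq transcript start in GRCm38.p6, written 5′ to 3′ on the gene's strand, and capitals mark matches to GGGCGG (the GC box bound by SP factors) or CAGCTG (an E-box, the kind of site bound by myogenic factors such as MyoD and myogenin), searched on both strands. The stretches lie at chr8:128358923-128359072 (plus strand) for *Nrp1*, chrX:73756940-73757089 (plus) for *Plxnb3*, chr5:12383016-12383165 (plus) for *Sema3d*, chr5:14025126-14025275 (plus) for *Sema3e* and chr6:82939770-82939919 (minus) for *Sema4f*. The *Nrp1* stretch lies inside the span of the gene in GENCODE M21, after an upstream first exon and directly before the next annotated start.
Nrp1: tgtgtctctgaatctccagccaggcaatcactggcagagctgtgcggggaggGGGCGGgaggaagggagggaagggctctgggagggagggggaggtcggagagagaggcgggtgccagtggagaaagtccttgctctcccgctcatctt
Plxnb3: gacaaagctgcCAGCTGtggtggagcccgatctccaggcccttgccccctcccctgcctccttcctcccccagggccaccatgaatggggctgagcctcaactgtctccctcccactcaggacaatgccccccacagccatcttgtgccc
Sema3d: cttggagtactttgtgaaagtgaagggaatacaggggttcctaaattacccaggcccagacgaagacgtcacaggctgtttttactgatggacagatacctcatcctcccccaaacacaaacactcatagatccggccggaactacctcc
Sema3e: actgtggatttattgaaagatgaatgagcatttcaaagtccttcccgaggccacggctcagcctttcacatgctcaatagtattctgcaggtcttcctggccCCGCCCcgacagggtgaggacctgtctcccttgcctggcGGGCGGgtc
Sema4f: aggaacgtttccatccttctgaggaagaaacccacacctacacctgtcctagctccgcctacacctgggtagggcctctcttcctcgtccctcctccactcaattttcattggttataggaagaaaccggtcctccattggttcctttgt

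The *Nrp1* stretch held 1 GC box and the *Sema3e* stretch 2, the *Plxnb3* stretch held 1 E-box, and the *Sema3d* and *Sema4f* stretches held neither. Their GC content was 64% for *Nrp1*, 65.3% for *Plxnb3*, 49.3% for *Sema3d*, 56% for *Sema3e* and 51.3% for *Sema4f*. RefSeq gave 37 promoter windows of 300 bases for 26 of the 34 members. The E-box was present in 6 of those 37 windows (16.2%) against 16.3% of all 32851 windows. The GC box was present in 27 of them (73.0%), against 35.7% of all windows and 46.2% of the 21263 windows of protein-coding genes. TATAAA, the core of the TATA box, was found in 0 of the 37 windows and in 13.6% of all windows. Letters that match are a description of the sequence and not a measurement of binding.

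Sequencing depth ranged from 61707889 to 80957325 counts per library. A count was taken as 75 aligned bases and a sequenced fragment as about 4 counts. The read length is not given in the sources used here, so the number of counts per fragment is an assumption. No pair of libraries was alike within sampling noise. The cells were checked against marker lists, whose counts stand beside 7.13% of all tested genes that rose and 8.73% that fell. All 20 myotube markers were measured, and 15 of them fell and 0 rose in the DM1 group (1 was higher at an unadjusted p under 0.05 and 0 by DESeq2), with a summed level of 12349 to 14293 TPM in the normal libraries and 9031 to 10063 TPM in the DM1 libraries. Of 13 markers of undifferentiated myoblasts and reserve cells, 2 rose and 3 fell, with summed levels of 523 to 598 TPM and 494 to 546 TPM. Of the 6 fibroblast markers tested among 8 listed, 4 rose and 0 fell (0 also at an unadjusted p under 0.05 and by DESeq2), with 1522 to 1798 TPM in the normal and 1790 to 2158 TPM in the DM1 libraries. *Tcf21* was at 0 in every library, and *Thy1* had 4 counts in normal library 2 alone. The only endothelial marker that could be tested, *Tek*, fell (log2 fold change -0.95), and those markers summed to at most 4.23 TPM with *Tie1* and *Erg* at 0, the immune markers to at most 6.92 TPM with *Ptprc*, *Adgre1*, *Cd3e* and *Tyrobp* at 0, and the neuronal and Schwann cell markers, of which *Stmn2* rose (0.44), to 194 to 221 TPM in the normal and 208 to 235 TPM in the DM1 libraries with *Rbfox3* and *Sox10* at 0. The summed myotube and endothelial levels did not overlap between the groups, whereas the other summed levels did, and the part of these markers in the values of the family was not tested. In bulk RNA, fewer cells of a type and less RNA per cell cannot be told apart.

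Of the 34 members, 30 passed the filter on low counts and were tested among 19005 genes with edgeR's quasi-likelihood test. In the DM1 group 3 members rose (*Sema5b*, *Sema3f* and *Sema4g*) and 9 fell (*Sema3e*, *Sema3d*, *Sema3c*, *Sema4c*, *Sema4f*, *Plxna1*, *Plxna2*, *Plxnb3* and *Nrp1*), at a Benjamini-Hochberg adjusted p under 0.05. By the same rule 7.13% of all tested genes rose and 8.73% fell, beside 10% and 30% of the tested members. The 3 that rose were ligands, whereas the 9 that fell comprised 5 ligands, 3 plexins and 1 neuropilin. With the added requirement of a log2 fold change beyond 1, *Sema5b* and *Sema3f* stayed among the genes that rose and *Plxnb3* alone among those that fell, beside 1.36% and 0.816% of all genes. The median log2 fold change of the tested members was -0.25, against 0.02 for all tested genes, and 20 members lay below 0, beside 48.6% of all tested genes.

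**Figure D1:**
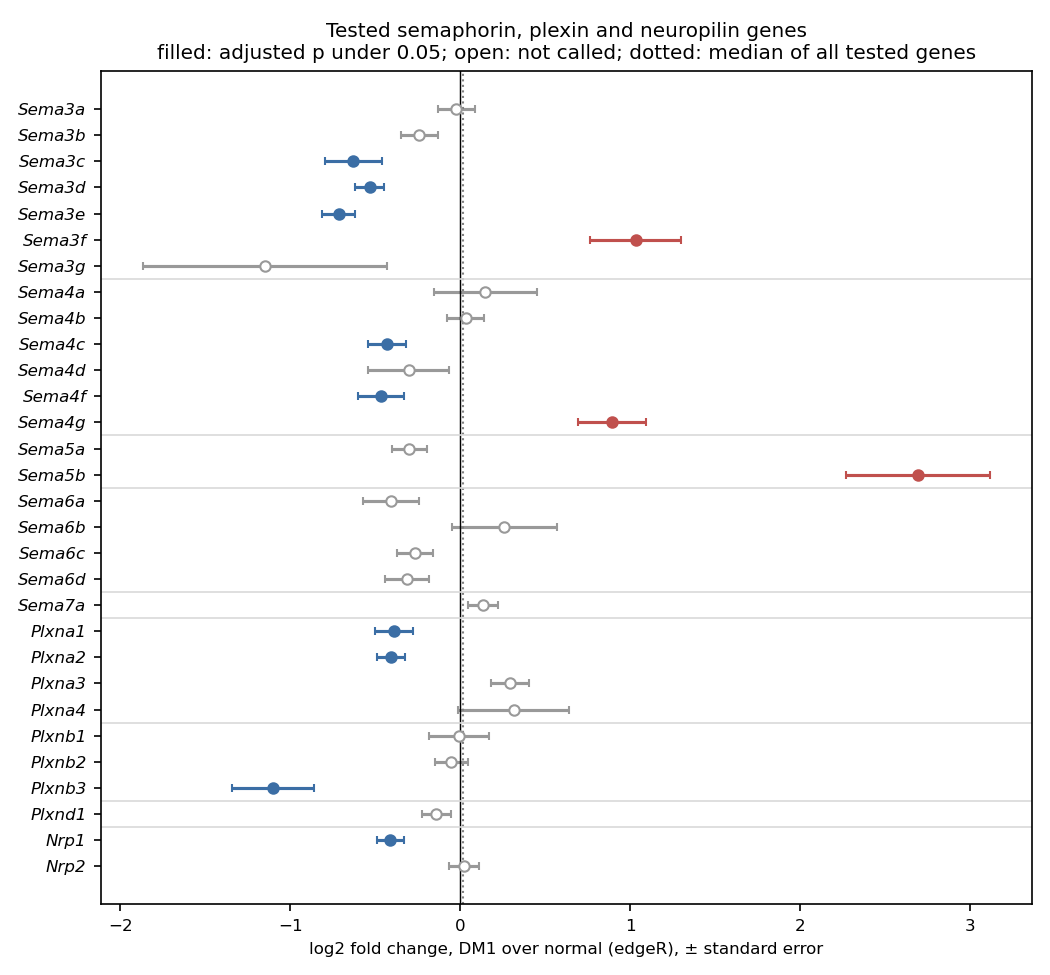
Log2 fold change of each tested member, DM1 over normal, on the horizontal axis, grouped by semaphorin class, plexin type and neuropilin. Points are edgeR estimates with bars of 1 standard error (3 libraries per group) and blue marks members that fell, red those that rose and open grey those not called. The values run from -1.15 for *Sema3g*, which has a wide error and was not called, to 2.69 for *Sema5b*, and the 9 members that fell lie between -1.10 and -0.39.

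Before any test, the normalised counts of 17 of the 30 members did not overlap between the groups, 5 with all DM1 libraries above all normal libraries and 12 with all below. Across all tested genes 17.9% were separated upwards and 19.3% downwards. All 12 members that rose or fell were among the 17. The other 5 were *Sema7a* and *Plxna3*, which were higher in every DM1 library, and *Sema5a*, *Sema6c* and *Sema6d*, which were lower, and none of these 5 passed the adjusted threshold. For *Sema7a* the direction turned on the deposited TPM, at 24.2 ± 2.58 in the normal and 23.3 ± 3.96 in the DM1 group with overlapping libraries.

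Among the 7 secreted class 3 ligands 1 rose and 3 fell, beside 7.13% and 8.73% of all tested genes, with a median log2 fold change of -0.53. *Sema3e* (chromosome 5, 14025276 to 14256689, plus strand) encodes the class 3 ligand that binds plexin D1 without a neuropilin. Its TMM-scaled level in CPM, the counts relative to library size, was 135, 132 and 138 in the normal libraries and 91.3, 73.3 and 82.2 in the DM1 libraries. The groups lay far apart relative to their own spread, at 135 ± 2.81 and 82.3 ± 9.02 (SD, n = 3 each). *Sema3e* fell 1.64-fold (log2 fold change -0.72, SE 0.0953, adjusted p = 0.00324, edgeR), and it passed in all 6 fits that left out a library.

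*Sema3d* (chromosome 5, 12383385 to 12588948, plus strand) encodes a ligand known from heart and vessel development. It was measured at 127, 138 and 136 CPM in the normal libraries and at 97.8, 95.0 and 85.2 CPM in the DM1 libraries. Every DM1 library was below every normal one, with means of 134 ± 5.92 and 92.7 ± 6.63 CPM. *Sema3d* fell 1.45-fold (log2 fold change -0.53, SE 0.0859, adjusted p = 0.00641, edgeR) and was also called without each library in turn.

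*Sema3c* (chromosome 5, 17574281 to 17730268, plus strand), a ligand for both neuropilins with a known role in the cardiac outflow tract, varied more within each group. Its values were 64.4, 90.4 and 79.9 CPM in the normal group and 51.1, 60.2 and 40.4 CPM in the DM1 group. The lowest normal and the highest DM1 library were close, and the means were 78.2 ± 13.1 and 50.5 ± 9.92 CPM. *Sema3c* fell 1.55-fold (log2 fold change -0.63, SE 0.168, adjusted p = 0.0397, edgeR). The call was lost without DM1 library 1 (adjusted p = 0.138, edgeR), DM1 library 3 (0.0620), normal library 2 (0.119) or normal library 3 (0.121).

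*Sema3f* (chromosome 9, 107681500 to 107710475, minus strand), a repellent ligand that prefers neuropilin 2, moved the other way from a low level. Its counts were 150, 57 and 113 in normal cells and 254, 188 and 189 in DM1 cells, or 1.78, 0.928 and 1.62 CPM against 3.42, 2.64 and 2.84 CPM. All DM1 libraries were above all normal ones. *Sema3f* rose 2.05-fold (log2 fold change 1.03, SE 0.268, adjusted p = 0.0332, edgeR), from 1.44 ± 0.454 to 2.97 ± 0.403 CPM. It stayed called only when DM1 library 3 was left out, and without any other library the adjusted p rose to at most 0.0822 with a log2 fold change of at least 0.80.

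The remaining class 3 ligands were not called. *Sema3a*, the founding axon repellent of the class, gave a log2 fold change of -0.02 (SE 0.109), with 60.9 ± 9.0 CPM in the normal and 59.9 ± 1.21 CPM in the DM1 group. *Sema3b* stood at 54.3 ± 5.43 and 46.0 ± 5.15 CPM (adjusted p = 0.181, edgeR), and it was called without DM1 library 3 (log2 fold change -0.34, adjusted p = 0.0481). *Sema3g*, a neuropilin 2 ligand, was counted 56, 27 and 45 times in normal and 43, 4 and 10 times in DM1 cells, so that DM1 library 1 was like the normal group and the others were not. Its log2 fold change of -1.15 (SE 0.718, adjusted p = 0.325, edgeR) became -2.48 without DM1 library 1, with an adjusted p of 0.0393.

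Among the 6 class 4 semaphorins, which span the membrane, 1 rose and 2 fell, beside the 7.13% and 8.73% of all tested genes. *Sema4g* (chromosome 19, 44989101 to 45003397, plus strand), a ligand of plexin B2, was measured at 2.63, 2.39 and 2.33 CPM in the normal libraries and at 4.09, 3.79 and 5.81 CPM in the DM1 libraries. The normal libraries lay close together and DM1 library 3 was the highest of all. *Sema4g* rose 1.86-fold (log2 fold change 0.89, SE 0.201, adjusted p = 0.0203, edgeR). The call was lost without any one of the normal libraries, with adjusted p-values of 0.0598, 0.0720 and 0.0799 without libraries 1, 2 and 3. On the deposited TPM the group means were 1.53 ± 0.0853 and 2.11 ± 0.403, and *Sema4g* was not called by limma on log2(TPM + 1) (0.29, adjusted p = 0.259) or log2(TPM + 0.1) (0.42, adjusted p = 0.304).

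*Sema4c* (chromosome 1, 36548639 to 36558349, minus strand), a plexin B2 ligand known to act in myogenic differentiation, was measured at 81.8, 76.5 and 75.9 CPM in the normal group and at 48.8, 59.3 and 65.8 CPM in the DM1 group. Every DM1 library was lower, and the DM1 libraries were spread more widely, with means of 78.1 ± 3.23 and 58.0 ± 8.59 CPM. *Sema4c* fell 1.35-fold (log2 fold change -0.43, SE 0.112, adjusted p = 0.0337, edgeR). Without DM1 library 2 or normal library 1, 2 or 3 the adjusted p was 0.0997, 0.117, 0.0920 or 0.106. An annotated gene on the opposite strand, *D430040D24Rik*, overlaps its exons, and since the strand setting of the counting is not given in the sources used here, reads of the pair cannot be told apart.

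*Sema4f* (chromosome 6, 82911885 to 82939769, minus strand), a class 4 ligand known from the nervous system, was measured at 6.40, 6.40 and 6.01 CPM in the normal libraries and at 4.77, 4.17 and 4.68 CPM in the DM1 libraries. The groups were separate with little spread inside either. *Sema4f* fell 1.38-fold (log2 fold change -0.47, SE 0.134, adjusted p = 0.0472, edgeR), close to the threshold, and no fit that left out a library kept the call, with adjusted p-values up to 0.16. *Sema4d*, the ligand of plexin B1, had 3.12 ± 0.302 CPM in the normal and 2.53 ± 0.803 CPM in the DM1 group (adjusted p = 0.443, edgeR). *Sema4a* and *Sema4b* gave log2 fold changes of 0.15 and 0.03 and were not called.

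The largest change of the family was in class 5, whose members carry thrombospondin repeats. *Sema5b* (chromosome 16, 35541145 to 35664732, plus strand), known as a repellent in the developing retina, was counted 19, 6 and 21 times in normal cells and 80, 115 and 94 times in DM1 cells. These correspond to 0.226, 0.0977 and 0.301 CPM against 1.08, 1.61 and 1.41 CPM, so that the lowest DM1 library was above the highest normal library. *Sema5b* rose 6.46-fold (log2 fold change 2.69, SE 0.423, adjusted p = 0.00582, edgeR) and passed without each library in turn, with a log2 fold change of 2.37 to 3.04. Its level remained low, at 0.902 ± 0.253 TPM, the deposited measure per transcript length, in the DM1 group. At about 4 counts per fragment, as assumed here, the normal libraries rest on a handful of fragments each.

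*Sema5a*, the other class 5 member and a ligand of plexin B3, was more abundant than *Sema5b* in every library, the TPM ratio of *Sema5b* to *Sema5a* reaching at most 0.173. It had 48.2 ± 3.26 CPM in the normal and 39.2 ± 4.09 CPM in the DM1 group, every DM1 library being lower, and it missed the threshold (log2 fold change -0.30, adjusted p = 0.0805, edgeR).

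None of the 4 class 6 semaphorins, transmembrane ligands that act through A-type plexins, was called by edgeR or by DESeq2. Of all tested genes 7.13% rose and 8.73% fell, so that a count of 0 among so few genes is near the share of all genes. At an unadjusted p under 0.05, 3 were lower. These 3 were *Sema6a* (81.6 ± 10.1 against 61.5 ± 13.7 CPM, adjusted p = 0.135, edgeR), *Sema6c* (13.8 ± 0.278 against 11.5 ± 0.604 CPM) and *Sema6d* (7.38 ± 0.327 against 5.94 ± 0.567 CPM). *Sema6a* was called without DM1 library 3 (adjusted p = 0.0261, edgeR). *Sema6b* was low, at 1.48 ± 0.585 and 1.76 ± 0.109 CPM. *Sema7a*, the membrane-anchored ligand that also signals through integrins, was at 44.8 ± 2.75 and 49.2 ± 3.18 CPM (log2 fold change 0.13, adjusted p = 0.356, edgeR), and its dedicated receptor *Plxnc1* was hardly seen, with 0, 8 and 4 counts in the normal and 10, 11 and 0 counts in the DM1 libraries. *Plxnc1* did not pass the filter and was not tested.

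**Figure D2:**
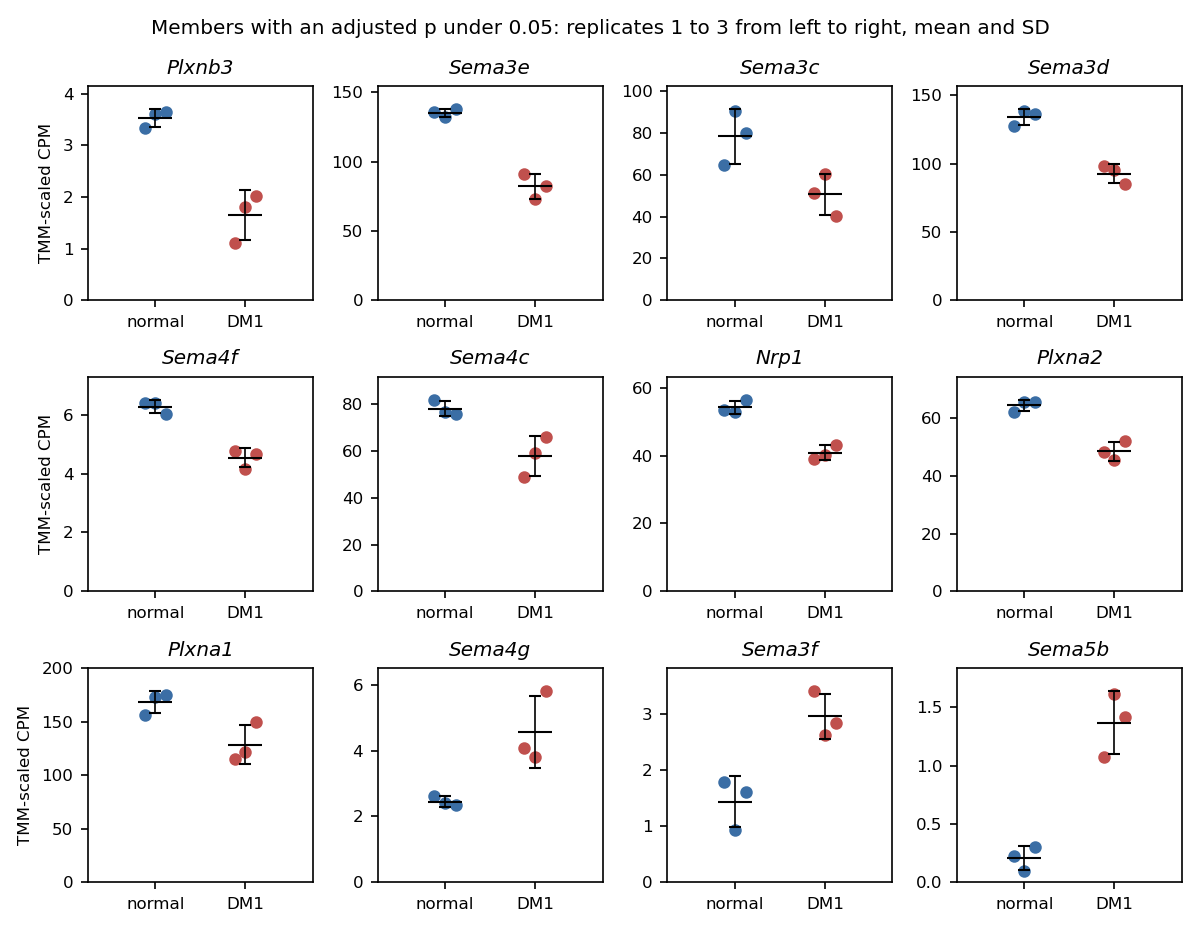
TMM-scaled CPM (linear axes from 0) of the 12 members that rose or fell, 1 panel per gene, with each library as a point and the group mean with its SD as a line and bar. In every panel the 3 DM1 libraries lie all above or all below the 3 normal libraries.

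Of the 8 tested plexins 3 fell and 0 rose (1, *Plxna3*, was higher at an unadjusted p under 0.05 and 0 by DESeq2), beside 8.73% and 7.13% of all tested genes, so that with so few genes the count of 0 is near the share of all genes. *Plxna1* (chromosome 6, 89316314 to 89362620, minus strand), a signalling subunit for neuropilin-bound class 3 ligands and a receptor of *Sema6d*, was measured at 157, 174 and 176 CPM in the normal libraries and at 115, 122 and 150 CPM in the DM1 libraries. The highest DM1 library was close to the lowest normal one. *Plxna1* fell 1.31-fold (log2 fold change -0.39, SE 0.113, adjusted p = 0.0491, edgeR), and the call was kept only without DM1 library 3, the adjusted p reaching 0.176 in the other fits that left out a library. *Gm26811* overlaps its exons on the opposite strand.

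*Plxna2* (chromosome 1, 194618218 to 194816869, plus strand), a receptor of *Sema6a* and a partner of neuropilins, was measured at 62.2, 65.4 and 65.4 CPM in the normal group and at 48.2, 45.5 and 52.0 CPM in the DM1 group. The groups were clearly apart, at 64.3 ± 1.89 and 48.6 ± 3.28 CPM. *Plxna2* fell 1.32-fold (log2 fold change -0.41, SE 0.0821, adjusted p = 0.014, edgeR). Without DM1 library 2, normal library 2 or normal library 3 the adjusted p was 0.0679, 0.0593 or 0.0745.

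*Plxnb3* (chromosome X, 73757090 to 73772514, plus strand), the receptor of *Sema5a*, was counted 280, 222 and 255 times in normal cells and 82, 129 and 135 times in DM1 cells. The corresponding values were 3.33, 3.62 and 3.65 CPM against 1.1, 1.81 and 2.03 CPM, with the normal libraries close together and DM1 library 1 the lowest. *Plxnb3* fell 2.14-fold (log2 fold change -1.10, SE 0.242, adjusted p = 0.0187, edgeR), the largest fall among the called members. The adjusted p was 0.0562, 0.0571, 0.0636 or 0.0724 without DM1 library 2 or normal library 1, 2 or 3.

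The other plexins did not pass the threshold. *Plxna3* was higher in every DM1 library, at 47.6 ± 3.09 against 58.4 ± 8.34 CPM (log2 fold change 0.29, adjusted p = 0.115, edgeR). *Plxnb2*, the receptor of *Sema4c* and *Sema4g*, was at 166 ± 5.54 and 160 ± 16.9 CPM (log2 fold change -0.05, SE 0.0954), and *Plxnb1* gave -0.01 (SE 0.174). *Plxnd1*, the receptor of *Sema3e*, was at 85.2 ± 1.64 and 77.3 ± 6.84 CPM (log2 fold change -0.14, adjusted p = 0.314, edgeR). *Plxna4* was below 1 CPM in every library, and its antisense transcripts were at 0 or 4 counts: *Plxna4os1* had 4 counts in normal library 3 alone, while *Plxna4os2* and *Plxna4os3* had 0 counts in every library.

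The neuropilins differed from each other. *Nrp1* (chromosome 8, 128358604 to 128503363, plus strand), the co-receptor of *Sema3a* and of vascular endothelial growth factor A, was measured at 53.4, 52.9 and 56.3 CPM in the normal libraries and at 39.0, 40.1 and 43.2 CPM in the DM1 libraries. The groups were separate and each was tight. *Nrp1* fell 1.33-fold (log2 fold change -0.41, SE 0.0806, adjusted p = 0.0126, edgeR), and the adjusted p reached 0.0620 when DM1 library 2, and 0.0764 when normal library 3, was left out. *Nrp2*, the co-receptor preferred by *Sema3f*, had 81.7 ± 3.04 and 82.9 ± 7.34 CPM, with overlapping groups (log2 fold change 0.02, SE 0.0887, adjusted p = 0.904, edgeR).

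Levels of different genes were compared by TPM, which divides by transcript length. In the normal group *Plxnb2* was the most abundant member (53.0 ± 4.56 TPM), followed by *Sema4c* (48.4 ± 8.71), *Sema3d* (39.0 ± 1.93), *Sema3b* (37.7 ± 6.68), *Sema3e* (34.8 ± 3.02) and *Plxna1* (32.5 ± 0.522). Each of these overlapped in range with the next, so that their order is not resolved beyond the spread, and the first gap came between *Plxna1* and *Nrp1* (25.4 ± 1.16). Of the 33 pairs of neighbours in this order, 24 overlapped in the normal group. In the DM1 group *Plxnb2* (50.2 ± 8.81 TPM) and *Sema4c* (38.4 ± 3.89) again had the highest means. Each overlapped in range with the next, *Sema4c* with *Sema3b* (30.0 ± 6.95 TPM), so that this order is not resolved beyond the spread either. *Sema3e* stood at 18.8 ± 2.27 TPM in the DM1 group, *Sema3d* at 24.0 ± 1.19 and *Plxna1* at 22.9 ± 5.34.

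**Figure D3:**
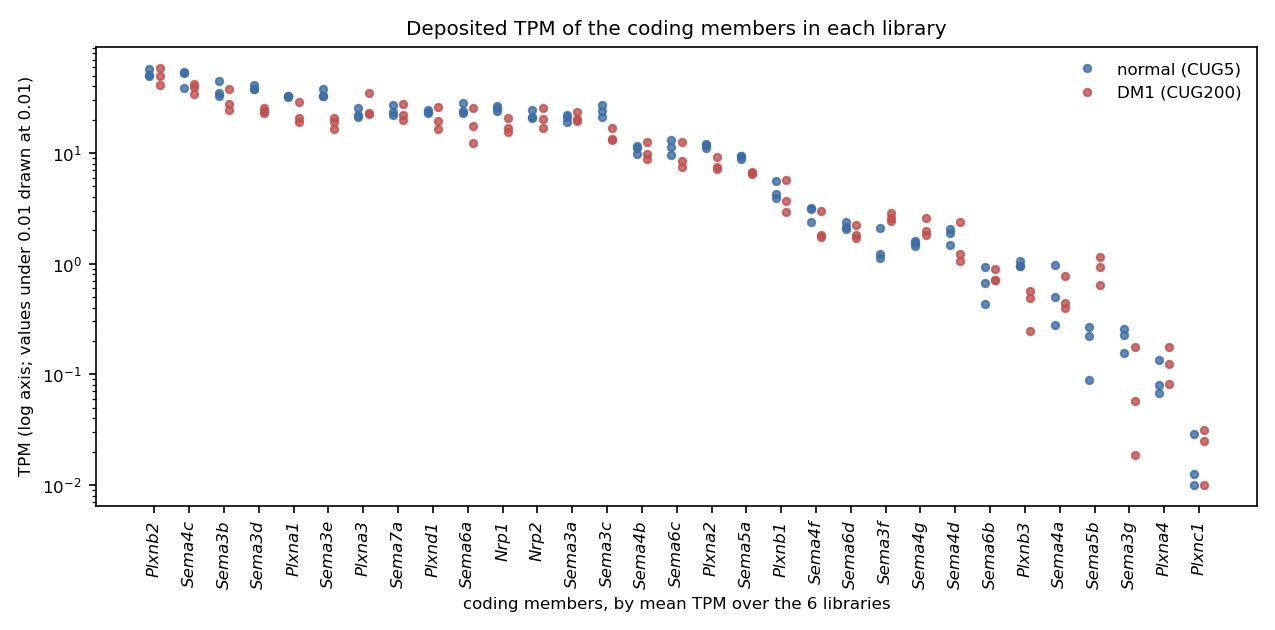
Deposited TPM of the 31 coding members in each library on a logarithmic axis, ordered by mean level over all 6 libraries, normal and DM1 libraries in different colours. In that order *Plxnb2*, *Sema4c*, *Sema3b*, *Sema3d* and *Plxna1* come first, and *Plxnc1*, whose values of 0 are drawn at 0.01 TPM, comes last. Within single groups *Plxna1* ranked lower, at 6 in the normal and 7 in the DM1 group.

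The members summed to 527, 483 and 472 TPM in the normal libraries and to 345, 380 and 474 TPM in the DM1 libraries, so that DM1 library 3 lay inside the range of the normal group. TPM is relative to everything else in a library, and the median TPM of all tested genes was 8.26, 7.75 and 7.55 in the normal and 6.55, 7.0 and 8.11 in the DM1 libraries, in the same order within each group. On the TMM-scaled counts the family summed to 1462 ± 28.0 CPM in the normal and 1212 ± 82.5 CPM in the DM1 group. As a share of the family's TPM, class 3 semaphorins made up 31.8% to 32.1% in the normal and 26.1% to 29.6% in the DM1 libraries. *Sema7a* made up 4.90% ± 0.300 and 5.83% ± 0.0350, and the B-type plexins 11.8% ± 0.531 and 13.7% ± 0.707, in both cases without overlap between the groups. The neuropilins held 9.62% ± 0.288 and 9.61% ± 0.197, and the A-type plexins 13.6% ± 0.566 and 14.4% ± 1.02.

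Ratios within a library do not depend on its scaling, and 6 pairs of related members were compared in this way after their values had been seen, without a test. *Nrp1* exceeded *Nrp2* in every normal library, with TPM ratios of 1.08, 1.17 and 1.19, and was below it in every DM1 library, at 0.904, 0.834 and 0.821. *Plxna1* exceeded *Plxna3* in the normal libraries (1.26, 1.53 and 1.48) and was below it in the DM1 libraries (0.820, 0.913 and 0.824). The order of the members by TPM thus changed over in both pairs. For *Plxna3* the TPM divides by the mean length of the transcripts assigned to it, 3484 ± 114 of 6943 bases in the normal group. In CPM, which is not divided by length, *Plxna1* exceeded *Plxna3* in every library. *Sema3f* relative to *Sema3e* was 0.0421 ± 0.0115 in the normal and 0.140 ± 0.00627 in the DM1 group, and relative to its neighbour *Sema3b* it was 0.0387 ± 0.00735 and 0.0893 ± 0.0147. *Sema5b* relative to *Sema5a* was 0.0211 ± 0.0107 and 0.137 ± 0.0398. *Plxnb3* relative to *Plxnb2* was 0.0187 ± 0.000638 and 0.00840 ± 0.00212.

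**Figure D4:**
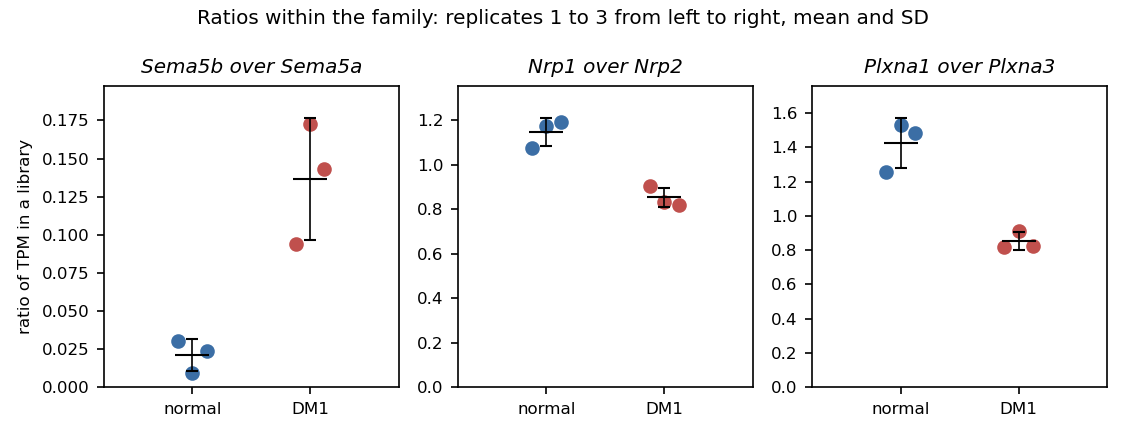
Ratio of TPM between 2 members of the family within each library for 3 of the pairs, 1 panel each, on linear axes from 0, with points for libraries and a line and bar for the group mean and SD (3 libraries each). The ratio of *Nrp1* to *Nrp2* goes from above 1 in the normal to below 1 in the DM1 libraries, as does that of *Plxna1* to *Plxna3*.

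Because the deposited files give counts and TPM side by side, the mean length of the transcripts that StringTie assigned to a gene could be worked out for each library, weighted by their abundance. This measure was chosen after the data had been seen. For genes with 1 transcript and over 200 counts, 98.3% to 98.7% came within 1% of the annotated length. Of the 21 members with several transcripts and over 200 counts in every library, 2 had longer mean transcripts in every DM1 library and 2 had shorter ones, beside 4.07% and 9.36% of the 10021 genes that could be measured in this way. The share of members with shorter transcripts was near that of all genes, so the values of these 4 members are given as a description. *Sema7a* went from 3111 ± 37.3 to 3271 ± 26.6 bases and *Sema3e* from 6534 ± 193 to 6754 ± 34.3 bases. *Plxnb2* went from 5272 ± 34.2 to 4954 ± 241 bases and *Sema3a* from 4921 ± 429 to 4376 ± 65.8 bases.

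The members also differed in how much of their longest annotated transcript was assigned. *Nrp1* was near full length at 3588 ± 1.92 of 3645 bases in the normal group, and *Plxna1* was at 8695 ± 100.2 of 9034 bases. *Plxna3* was at 3484 ± 114 of 6943 bases and *Sema6c* at 2066 ± 208 of 5095 bases, so that part of their abundance was assigned to shorter transcripts. The mean weights transcripts by abundance and not by counts, so it does not give the share of counts on shorter transcripts. The TPM of *Sema4c*, like that of *Sema4f*, overlapped between the groups although its CPM did not. For *Sema4c* the mean length was 2762 ± 438 bases in the normal and 2327 ± 348 bases in the DM1 group.

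**Figure D5:**
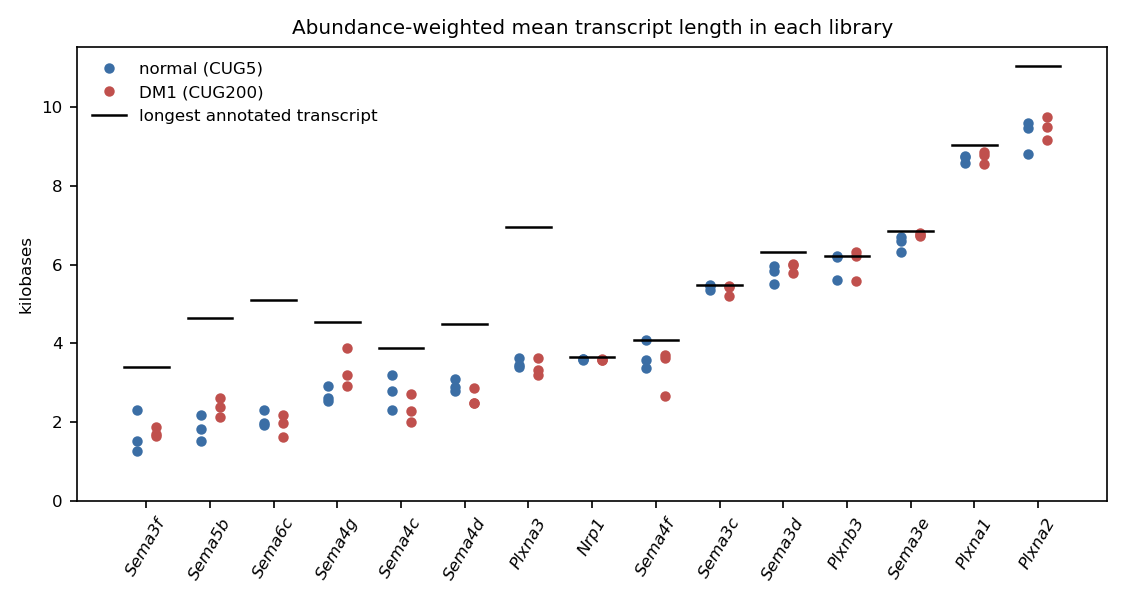
Abundance-weighted mean transcript length in kilobases, 1 point per library, for the 12 members that rose or fell and for *Plxna3*, *Sema6c* and *Sema4d*, with a black line at the longest annotated transcript. The points of *Nrp1* and *Plxna1* lie close to the line in both groups, while those of *Plxna3* and *Sema6c* lie far below it. *Sema5b*, *Sema3f*, *Plxnb3*, *Sema4g* and *Sema4d* did not have over 200 counts in every library, so their points fall short of the limit set for this measure.

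Several ligand genes neighbour each other in the genome. *Sema3d*, *Sema3a*, *Sema3e* and *Sema3c* lie on chromosome 5 between 12383385 and 17730268, and all but *Sema3a* fell. Of the 14 other genes tested in that interval, 2 rose and 1 fell, beside 7.13% and 8.73% of all genes, with a median log2 fold change of 0.10. The 1 that fell is a share near that of all genes. These 3, named after their values were seen, were *Gm6650* (1.70), *Hgf*, which encodes hepatocyte growth factor, the ligand of *Met* (0.59, adjusted p = 0.00814, edgeR), and *Cacna2d1*, a calcium channel subunit (-1.07, adjusted p = 0.0113, edgeR). *Sema3b* and *Sema3f* lie 72270 bases apart on chromosome 9, and the 2 other genes tested between their outer ends gave log2 fold changes of -0.01 (*Gnai2*) and 0.28 (*Gm19721*).

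Other receptors and co-receptors known to work with semaphorins were read against the shares of all genes tested, of which 7.13% rose and 8.73% fell. Of 14 tested among 22 listed, 0 rose (2 were higher at an unadjusted p under 0.05 and 0 by DESeq2) and 1 fell, with a median log2 fold change of 0.05. The gene that fell was *Met*, the hepatocyte growth factor receptor that can associate with B-type plexins, from 81.7 ± 18 to 48.8 ± 3.55 CPM (log2 fold change -0.75, SE 0.157, adjusted p = 0.0172, edgeR). The call on *Met* was kept only without normal library 1, and the adjusted p was 0.0519, 0.0695 or 0.0559 without DM1 library 1, 2 or 3 and 0.0593 or 0.0702 without normal library 2 or 3. *Flt4*, *Chl1*, *Timd2*, *Ptprz1*, *Trem2* and *Tyrobp* were at 0 in every library. Of the 5 genes for ligands of the vascular endothelial growth factor family, which share neuropilins with the semaphorins, 2 rose and 0 fell (0 also at an unadjusted p under 0.05 and by DESeq2), beside the same shares of all genes. *Vegfa* rose from 340 ± 34.4 to 559 ± 79.4 CPM (log2 fold change 0.72, SE 0.125, adjusted p = 0.00826, edgeR) and *Vegfd*, a lymphatic growth factor, from 6.74 ± 0.650 to 9.92 ± 1.6 CPM (0.56, adjusted p = 0.0413, edgeR). *Vegfa* passed without each library in turn, and *Vegfd* in none of those fits, with adjusted p-values of 0.0557 to 0.137.

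Among 45 tested genes for plexin effectors and the cytoskeleton, 4 rose and 7 fell, beside the same 7.13% and 8.73% of all genes, with a median log2 fold change of -0.06. The 4 that rose are a share near that of all genes. Those that rose were *Sh3bp1*, a Rac GTPase-activating protein (0.67), *Micall1*, an endocytic relative of the MICAL proteins (0.73), *Cfl1*, the actin-severing cofilin (0.43), and *Rras*, the small GTPase that plexins inactivate (0.43). *Cfl1* went from 1246 ± 50.2 to 1681 ± 50.0 CPM. The 4 with the smallest p among those that fell were *Mical1*, which oxidises actin downstream of plexins (-0.52), *Rasa1*, a Ras GTPase-activating protein (-0.49), *Pak2*, a kinase activated by Rac (-0.44), and *Dpysl3*, of the collapsin response mediator family (-0.35). *Mical1* went from 78.6 ± 3.46 to 54.7 ± 3.66 CPM (adjusted p = 0.006, edgeR). The largest fall was that of *Gsk3b*, from 84.7 ± 24.0 to 38.7 ± 8.24 CPM (log2 fold change -1.13, SE 0.249, adjusted p = 0.0281, edgeR). It was the only effector gene called beyond a log2 fold change of 1, beside 0.816% of all genes that fell by that rule. *Sh3bp1*, *Micall1* and *Mical1* passed in all 6 fits that left out a library, *Cfl1* and *Rasa1* in 4, *Rras* in 3 and *Pak2* and *Dpysl3* in 2. By limma on log2(TPM + 1) and log2(TPM + 0.1), *Sh3bp1* (adjusted p = 0.0782 and 0.0752), *Micall1* (0.224 and 0.217) and *Mical1* (0.0638 and 0.0621) were not called. The log2 fold change of *Micall1* was 0.38 and 0.39 there. *Rasa1* was called in both (adjusted p = 0.0475 and 0.0463, limma). The call on *Cfl1* was lost without normal library 1 or 3, that on *Rras* without any one normal library, that on *Rasa1* without normal library 2 or DM1 library 2, and those on *Pak2* and *Dpysl3* without any one normal library or DM1 library 2.

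Other guidance families were set beside the semaphorins by the same fit. None of the 16 tested ephrins and Eph receptors rose or fell by edgeR or by DESeq2, beside 7.13% and 8.73% of all tested genes. With so few genes a count of 0 in either direction is near those shares. At an unadjusted p under 0.05, 2 were lower and 0 higher, and the median log2 fold change was -0.11. Of 14 tested genes for Slits, Robos, netrins and their receptors, 1 rose and 5 fell, beside the same shares of all genes, with a median of -0.22. *Unc5c*, a netrin receptor, rose (log2 fold change 0.59, adjusted p = 0.0133, edgeR). *Neo1*, the receptor neogenin with a known part in myotube formation, fell from 106.8 ± 4.37 to 61.3 ± 5.79 CPM (log2 fold change -0.80, SE 0.0910, adjusted p = 0.00211, edgeR). The netrin genes *Ntn4* (-0.63) and *Ntn1* (-0.41) and the neogenin ligand *Rgmb* (-0.41) also fell. *Neo1* and *Ntn4* passed without each library in turn. By limma on log2(TPM + 1) and log2(TPM + 0.1), *Neo1* kept its call (adjusted p = 0.0253 and 0.0237). *Ntn4* lost it in both (adjusted p = 0.161 and 0.155, limma), at log2 fold changes of -0.70 and -0.72. The call on *Unc5c* was lost without normal library 1 or 3, that on *Ntn1* without any one normal library or DM1 library 2, and that on *Rgmb* without normal library 1 or 3 or DM1 library 2.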

How the data were processed

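RNA of 6 libraries, 3 GFP-CUG5 (normal) and 3 GFP-CUG200 (DM1), was sequenced. The authors trimmed reads with Trim Galore, aligned them to GRCm38 with HISAT2 and quantified genes with StringTie. Versions, read length and strand setting are not given in the sources used here. The deposited count table holds whole-number counts per gene, each taken here to stand for 75 aligned bases. The deposited files of single libraries hold read coverage (signal), FPKM and TPM per gene, computed by StringTie and joined here by gene ID. All 34 members had the span of GENCODE M21, from which transcripts and exons were taken.

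Counts were tested with edgeR 4.0.16 in R 4.3.3 (filterByExpr with a minimum of 10 counts, TMM, robust glmQLFit, glmQLFTest), with Benjamini-Hochberg adjustment over 19005 genes. A gene rose or fell at an adjusted p under 0.05, and the authors' cutoff of 1 on the log2 fold change was given beside it. Standard errors were derived from the F statistic. On simulated data in which 200 genes differed by 2 on the log2 scale the test recovered 88.5% of them, with 15 false calls among 18446 genes, while DESeq2 recovered 94% with 48 false calls. All called members but *Sema5b* changed by less than 2, and recovery of smaller changes was not simulated. The deposited TPM and FPKM were used for levels, shares and ratios.

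Members with an adjusted p under 0.05 were given with every library, the 5 members highest in TPM with their levels, and from other lists up to 4 genes per direction with the smallest p. *Gsk3b* was given in addition, for its fold change. Members and lists were chosen with earlier results of these data known. The alternatives were DESeq2 1.42.0, DESeq2's size factors, library sizes alone, 2 other filters, the replicate number as a block, limma 3.58.1 on log2(TPM + 1) and log2(TPM + 0.1), counts divided by 4 and rounded up, summed overlapping genes, FPKM in place of TPM, and each library left out. Intervals for single counts were not computed, and counts are not independent molecules. No amino acid sequence was used here.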

Additional observations from a re-analysis of the deposited data

How the results depend on the processing

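No member changed direction among the called genes under any alternative. Among the members not called, the sign of *Nrp2*, *Plxnb1*, *Sema3a*, *Sema4a*, *Sema4b* and *Sema7a* changed in at least 1 alternative that kept all libraries. With limma on log2(TPM + 1) and on log2(TPM + 0.1), members that rose numbered 1 and 1 (3 by edgeR on counts) and members that fell 3 and 3 (9). *Sema3c*, *Sema3d*, *Sema3e* and *Sema5b* kept their call in both, and the other 8 called members lost it in both. Among those 8 the log2 fold change on TPM was larger in size for *Nrp1* (-0.51 and -0.53, against -0.41 on counts), *Plxna1* (-0.51 and -0.53, against -0.39) and *Plxna2* (-0.51 and -0.56, against -0.41). It was smaller in size in both fits for *Plxnb3*, *Sema3f*, *Sema4c*, *Sema4f* and *Sema4g*. With library sizes alone 6 members fell, without *Plxna1*, *Sema4c* and *Sema4f*, and with no filter beyond 1 count 8 fell, without *Sema4f*. With the cutoff of 1 on the log2 fold change, limma on log2(TPM + 1) and log2(TPM + 0.1) gave 0 and 1 higher (2) and 0 and 0 lower (1). Library sizes alone and no filter beyond 1 count each left 2 higher and 1 lower. With at least 10 counts required in every library 1 was higher, since *Sema5b* failed that filter. Limma on log2(TPM + 1) gave a member median of -0.17 (-0.25), while the median of all genes was -0.06, and -0.09 on log2(TPM + 0.1). Leaving out 1 library gave 1 to 3 members that rose, 2 to 9 that fell, 1 to 2 higher and 0 to 1 lower with the fold cutoff, and medians of -0.29 to -0.17. *Sema3d*, *Sema3e* and *Sema5b* were the called members that kept their call in all 6 of those fits. DESeq2 called the same 12 members.

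Of the other lists, limma on log2(TPM + 1) and log2(TPM + 0.1) gave 0 and 0 vascular endothelial growth factor ligands that rose, 0 and 0 effectors that rose, 2 and 2 effectors that fell, and, among Slits, Robos and netrins, 0 and 0 that rose and 1 and 1 that fell. DESeq2 gave 7 effectors that rose, and library sizes alone left 1 growth factor ligand. Leaving out 1 library gave 0 to 1 co-receptors in either direction, 1 growth factor ligand, 2 to 7 effectors that rose and 1 to 9 that fell, and 0 to 1 and 2 to 5 genes of the Slit, Robo and netrin list.

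Correlations of deviations between libraries of the same replicate number were small, at 0.0675, 0.0222 and 0.0263. Over all pairs between the groups they ran from -0.0722 to 0.0675. Normal libraries 1 and 2 correlated most with the DM1 library of their own number, and normal library 3 with DM1 library 2 (0.0451). Whether the replicate numbers pair the libraries is thus not resolved. With the replicate number as a block 3 members rose and 8 fell, 2 and 1 of them beyond the fold cutoff, and 0 co-receptors fell. *Sema4c* and *Sema4f* lost their call under the block and *Sema6a* gained one. Depth limits *Sema5b*, *Sema3g*, *Sema4a*, *Plxna4* and *Plxnc1*, where values rest on few fragments. The causes of these shifts were not tested.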
